A study of Mus musculus with 8 samples.

Results

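Ectonucleotidases are enzymes of the cell surface and the extracellular space that split nucleotides, and 8 of their genes were described here together with Adora2b, which encodes a receptor for their end product adenosine. The enzyme genes were Nt5e, Alpl, Entpd1, Entpd2, Entpd5, Enpp1, Enpp2 and Enpp3. The 9 genes were found by matching gene IDs to symbols, out of 55335 genes in the counts. They were selected on earlier results from these same libraries, in which Nt5e stood out for its high counts in all 6 knockdown libraries. Their levels and differences are therefore given as a description, with no test. Of the 9 genes, 7 passed the filter on low counts, while Entpd1 and Enpp2 did not. Enpp1 passed through its counts in the Sox2-KD libraries alone.

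The libraries came from E14 cells, a line of mouse embryonic stem cells (ESCs), infected with lentivirus that expressed a short hairpin RNA (shRNA). There were 4 groups of 2 biological replicates each, which received a negative control shRNA or an shRNA against Sox2, Hnrnpk or Cdk9 (knockdown, KD). SOX2 is a transcription factor of pluripotent cells, hnRNPK binds C-rich RNA and DNA, and CDK9 is the kinase that releases paused RNA polymerase. All groups shared the line and the viral vector, and which of the hairpins against a gene each library carried is not given in the sources used here. RNA was selected with oligo(dT), sequenced in pairs, and counted per gene.

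The totals lay between 16709201 and 17719366 counts per library. Levels are given as CPM, the counts scaled to a common library total with TMM factors. Sox2 was at 412 and 530 CPM under the control shRNA and at 320 and 284 in the Sox2-KD libraries. Cdk9 went from 109 and 129 in control to 73.1 and 53.2 in Cdk9-KD. Hnrnpk was at 1094 and 1131 in control but at 697 and 1144 in the 2 libraries labelled as its knockdown, so that replicate 2 of that group did not have less of its target mRNA. Those libraries are called the hnRNPK-labelled pair throughout. On the log2 scale, each target differed from control by −0.64 (Sox2), −0.27 (Hnrnpk) and −0.91 (Cdk9) in its own comparison, with edgeR adjusted p = 0.0479, 0.808 and 0.0985. ESC markers (Pou5f1, Nanog, Zfp42, Esrrb, Klf4, Tfcp2l1, Dppa5a, Sall4) summed to between 6820 and 7040 CPM in control, 5989 and 6541 in Sox2-KD, 6811 and 7112 in the hnRNPK-labelled pair and 6960 and 8050 in Cdk9-KD. All 3 comparisons used the same 2 control libraries, so agreement between them is not independent.

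Cells release ATP, and the enzymes on their surface degrade it in steps. Some Entpd and Enpp proteins break down ATP and ADP, and CD73, the product of Nt5e, turns the resulting AMP into adenosine. Tissue-nonspecific alkaline phosphatase, the product of Alpl, removes phosphate from all of these and from pyrophosphate, and its activity is the classical stain for undifferentiated ESCs. Adenosine then acts on receptors, is taken up again, or is deaminated to inosine.

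Nt5e, the AMP-hydrolyzing enzyme, had 158 and 71 counts in the control libraries, or 8.90 and 4.07 CPM. In the Sox2-KD libraries it had 749 and 870 counts, or 41.2 and 49.6 CPM. The hnRNPK-labelled pair had 593 and 746 counts of Nt5e, or 34.8 and 43.4 CPM. In Cdk9-KD there were 620 and 700 counts, or 36.2 and 41.4 CPM. All 6 KD libraries thus lay above both control libraries, and the KD groups overlapped one another. The control libraries differed from each other more than the members of any KD pair did, on the log2 scale.

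The mean level of Nt5e was 6.48 ± 3.42 CPM in control (SD, n = 2), 45.4 ± 6.0 in Sox2-KD, 39.1 ± 6.12 in the hnRNPK-labelled pair and 38.8 ± 3.66 in Cdk9-KD. Fitted with edgeR, the difference in Nt5e from control was 2.81 (SE 0.307) in Sox2-KD on the log2 scale, a 7.0-fold higher level. It was 2.59 (SE 0.306), or 6.03-fold, in the hnRNPK-labelled pair, and 2.58 (SE 0.306), or 5.99-fold, in Cdk9-KD. With 1 control library left out, the 3 values of Nt5e moved to between 2.10 and 2.34 without replicate 2 and to between 3.21 and 3.46 without replicate 1.

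A gene was called where its adjusted p was under 0.05 and its log2 fold change beyond 0.6 in either direction. Among the 16504 genes tested, 4.32% were called in Sox2-KD, 0% in the hnRNPK-labelled pair and 0.139% in Cdk9-KD. Of the 7 members tested, 1 was called in Sox2-KD, 0 in the hnRNPK-labelled pair and 1 in Cdk9-KD, and both calls were Nt5e. In the comparison of the hnRNPK-labelled pair, edgeR's quasi-likelihood test called 0 genes of all those tested, with 1325 at an unadjusted p under 0.05 and 83 called by DESeq2. Nothing is read from the calls of Nt5e, since it was picked on these values. The call of Nt5e in Cdk9-KD was lost without control replicate 2 and also without Cdk9-KD replicate 2, while without control replicate 1 Nt5e was called in the hnRNPK-labelled pair as well.

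Over all genes tested, 942 (5.71%) had all 6 KD libraries above both control libraries and 589 (3.57%) had all 6 below. Of the members, Nt5e was in the first set and Entpd2 in the second. The lowest KD library of Nt5e lay 1.91 above the higher control library in log2(CPM + 0.5), and the highest KD library of Entpd2 lay 0.031 below the lower control library. The place of Nt5e in the first set restates the values it was selected on.

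**Figure D1:**
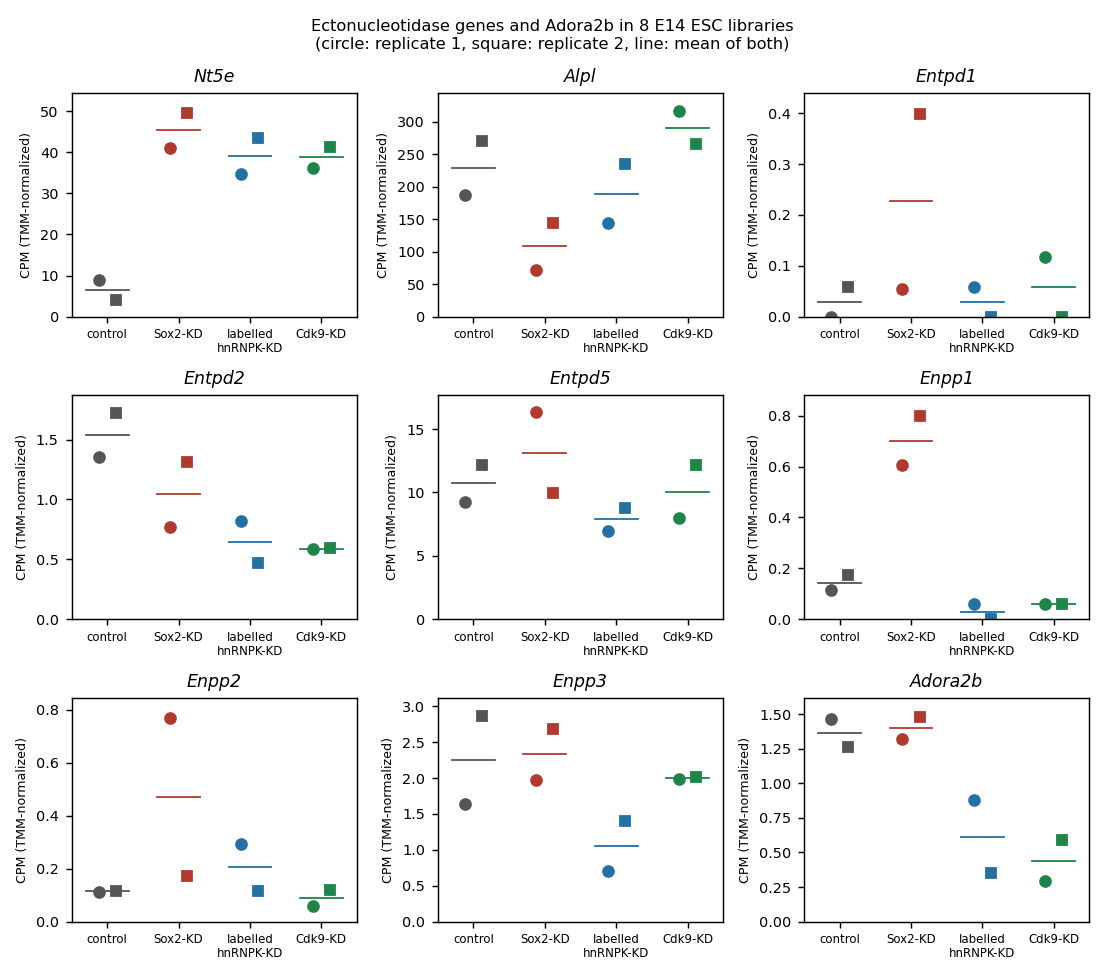
Normalized level of each of the 9 genes in each library. The vertical axes are TMM-normalized CPM from 0, with a scale of its own for each gene, and the horizontal axes give the group, with a circle for replicate 1, a square for replicate 2 and a line at their mean. The control points of Nt5e are at 4.07 and 8.90 CPM and its KD points between 34.8 and 49.6, whereas the mean of Alpl is lowest in Sox2-KD and Entpd1, Enpp1 and Enpp2 stay under 1 CPM in every library.

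Nt5e (ENSMUSG00000032420.8) occupies positions 88327197 to 88372092 of chromosome 9, + strand (GRCm38, GENCODE vM21), with 4 annotated transcripts. The window of 250 bases before its RefSeq start, from 88327359 to 88327608, falls within the first exon of a longer GENCODE transcript and has 72.0% G and C, 21 CpG sites and 4 GC boxes (GGGCGG, read on both strands). Over all RefSeq promoter windows of that length the median was 52.4% G and C with 6 CpG sites, and 32.7% of the 32851 windows held a GC box. The counts are per gene, so the start used by Nt5e in each library is not known.

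Alpl encodes the phosphatase behind the ESC stain and had the highest level of the 9 genes in every library. It had 3323 and 4707 counts in control, or 187 and 270 CPM. In Sox2-KD it had 1310 and 2526 counts, or 72.0 and 144 CPM, both below the lower control library. The hnRNPK-labelled pair were at 143 and 235 CPM of Alpl, which overlapped control. Cdk9-KD was at 316 and 266 CPM, with replicate 1 above both control libraries and replicate 2 between them.

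The log2 difference of Alpl from control was −1.08 (SE 0.321) in Sox2-KD, or 0.473 of the control level, and Alpl was not called. It was −0.27 (SE 0.317) in the hnRNPK-labelled pair and 0.35 (SE 0.317) in Cdk9-KD, each about as large as its error. The value in Sox2-KD differed between its libraries and was −1.67 without Sox2-KD replicate 2 and −0.67 without Sox2-KD replicate 1. DESeq2 called Alpl in Sox2-KD. The sum of the ESC markers was also below both controls in both Sox2-KD libraries. Of its 8 genes, 3 (Pou5f1, Nanog and Esrrb) were below both controls, the rest overlapped control, and 0 were called, beside 4.32% of all genes. Tfcp2l1 had the higher mean in Sox2-KD, at 1614 CPM against 1432. The part of this sum in the level of Alpl was not tested.

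Alpl (ENSMUSG00000028766.10) occupies positions 137741733 to 137796384 of chromosome 4, − strand, with 8 annotated transcripts, and RefSeq gives it 2 promoters. Their sequences are shown because the counts pool the transcripts of both starts. The first, chr4:137766476-137766725, is inside an intron of Alpl and has 56.0% G and C with 4 CpG sites. The second, chr4:137796385-137796634, is upstream of the whole gene and has 68.4% G and C with 20 CpG sites. Both are the 250 bases before the start, from RefSeq (GRCm38.p6), 5′ to 3′ on the − strand.
Alpl inner promoter: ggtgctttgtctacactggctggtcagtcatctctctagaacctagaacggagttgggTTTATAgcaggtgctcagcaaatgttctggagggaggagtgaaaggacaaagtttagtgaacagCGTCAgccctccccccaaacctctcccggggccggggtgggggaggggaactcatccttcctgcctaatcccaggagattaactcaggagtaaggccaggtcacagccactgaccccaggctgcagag
Alpl outer promoter: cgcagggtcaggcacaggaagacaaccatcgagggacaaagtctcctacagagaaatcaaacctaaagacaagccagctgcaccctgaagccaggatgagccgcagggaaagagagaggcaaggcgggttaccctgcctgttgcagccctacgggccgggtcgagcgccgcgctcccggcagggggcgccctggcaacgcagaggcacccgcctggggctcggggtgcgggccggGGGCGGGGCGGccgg
Capitals mark every match to 5 short motifs searched on both strands. In the inner promoter these are a TATA box (TATAAA, here as its reverse complement) and a TGACG element of the cAMP response type (also reversed), which 12.4% and 17.8% of all windows hold. In the outer promoter they are 2 overlapping GC boxes. Neither window held CCAAT or the SOX core letters ACAAT, which 33.9% and 27.7% of all windows do. Such matches describe the letters and not binding.

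Since Nt5e was higher and Alpl lower in Sox2-KD, their ratio within each library was also taken, with CPM divided by exon length in kilobases (RPKM). The RPKM of Nt5e was 0.0223 and 0.00707 of that of Alpl in the control libraries and 0.268 and 0.162 in Sox2-KD. The ratio was 0.114 and 0.0867 in the hnRNPK-labelled pair and 0.0538 and 0.0730 in Cdk9-KD. The ratio was highest in Sox2-KD and lowest in control, which restates the levels of both genes given above. Alpl remained the more abundant transcript per length in all 8 libraries.

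The Entpd genes encode enzymes that strip phosphates from nucleotides. Entpd1 (ENSMUSG00000048120.16, chr19:40612366-40741602, + strand), which encodes CD39, was nearly absent, with 0 and 1 counts in control, 1 and 7 in Sox2-KD, 1 and 0 in the hnRNPK-labelled pair and 2 and 0 in Cdk9-KD. Its sum of 8 counts in Sox2-KD against 1 in control gave a ratio of 7.89, with a 95% exact counting interval from 1.06 to 350. That interval covers counting error only, and 7 of the 8 counts were in 1 library.

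Entpd2 (ENSMUSG00000015085.8, chr2:25395874-25401321, + strand), whose enzyme prefers ATP over ADP, had 24 and 30 counts in control, 14 and 23 in Sox2-KD, 14 and 8 in the hnRNPK-labelled pair and 10 and 10 in Cdk9-KD. All KD libraries were below both controls after scaling, from 0.466 to 1.31 CPM against 1.35 and 1.72. The log2 difference of Entpd2 was −0.56 (SE 0.463), −1.25 (SE 0.489) and −1.37 (SE 0.494) in the same order of KD groups. Its exons share 612 bases with those of Npdc1 on the same strand, so its counts are uncertain.

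Entpd5 (ENSMUSG00000021236.16, chr12:84373857-84409029, − strand), an enzyme of the endoplasmic reticulum that can also be secreted, had 164 and 213 counts in control, 298 and 174 in Sox2-KD, 119 and 151 in the hnRNPK-labelled pair and 136 and 206 in Cdk9-KD. Only the hnRNPK-labelled pair were both below the controls, at 6.98 and 8.79 CPM against 9.24 and 12.2. The log2 differences of Entpd5 were 0.30 (SE 0.313), −0.44 (SE 0.318) and −0.09 (SE 0.315).

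The Enpp genes encode pyrophosphatases and phosphodiesterases. Enpp1 (ENSMUSG00000037370.13, chr10:24637914-24712159, − strand), whose enzyme makes pyrophosphate from ATP, had 2 and 3 counts in control, 11 and 14 in Sox2-KD, 1 and 0 in the hnRNPK-labelled pair and 1 and 1 in Cdk9-KD. The sums of 25 counts in Sox2-KD and 5 in control gave a ratio of 4.93, with a 95% exact counting interval from 1.85 to 16.5. For the hnRNPK-labelled pair the ratio was 0.206 (0.00435 to 1.84) and for Cdk9-KD it was 0.414 (0.0394 to 2.53). These intervals cover counting error in the libraries and are no test. Outside Sox2-KD, Enpp1 was at or under 3 counts in every library.

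Enpp2 (ENSMUSG00000022425.16, chr15:54838901-54952892, − strand), which encodes autotaxin, the enzyme that makes lysophosphatidic acid, had 2 and 2 counts in control, 14 and 3 in Sox2-KD, 5 and 2 in the hnRNPK-labelled pair and 1 and 2 in Cdk9-KD. Its ratio of 4.19 in Sox2-KD (95% exact counting interval 1.37 to 17.1) rested on replicate 1. Its exons overlap those of Gm26684 on the opposite strand by 345 bases. The strand setting of the counting is not given in the sources used here, so reads of the pair cannot be told apart.

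Enpp3 (ENSMUSG00000019989.8, chr10:24772406-24842823, − strand), a surface enzyme that cleaves extracellular ATP, had 29 and 50 counts in control, 36 and 47 in Sox2-KD, 12 and 24 in the hnRNPK-labelled pair and 34 and 34 in Cdk9-KD. Sox2-KD and Cdk9-KD lay within the range of the controls, and the hnRNPK-labelled pair were both below it. The log2 differences of Enpp3 were 0.05 (SE 0.437), −1.09 (SE 0.465) and −0.17 (SE 0.442).

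Adora2b (ENSMUSG00000018500.2, chr11:62248984-62266453, + strand) encodes the low-affinity adenosine receptor, which signals through cAMP. It had 26 and 22 counts in control, 24 and 26 in Sox2-KD, 15 and 6 in the hnRNPK-labelled pair and 5 and 10 in Cdk9-KD. The last 4 libraries were all below both controls, whereas Sox2-KD reached slightly above them. The log2 differences were 0.04 (SE 0.491), −1.14 (SE 0.533) and −1.61 (SE 0.556), on at most 26 counts per library.

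**Figure D2:**
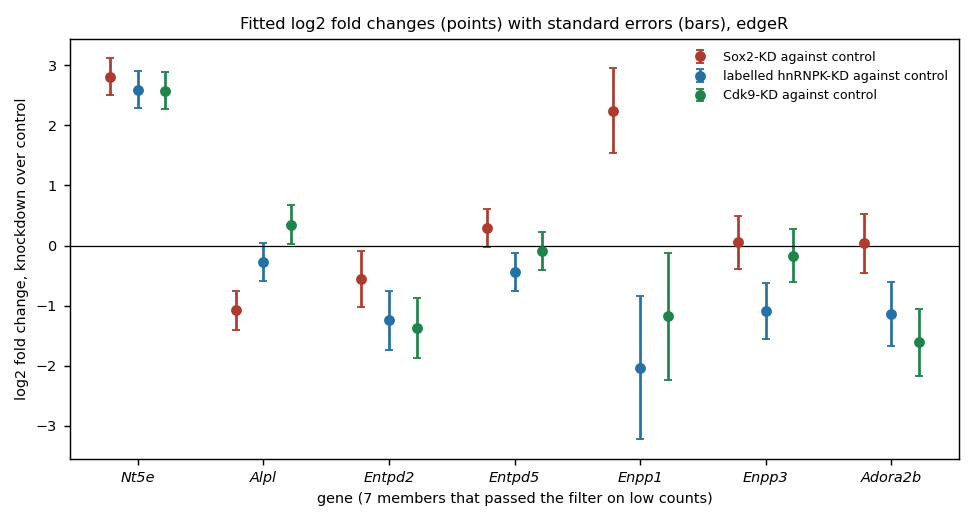
Fitted differences of the 7 members tested. The vertical axis is the log2 fold change of each KD group over control, with points for the edgeR estimates, bars for their standard errors and a color per group. Nt5e is between 2.58 and 2.81 in all 3 comparisons, while the median of the 7 genes is 0.05 in Sox2-KD, −1.09 in the hnRNPK-labelled pair and −0.17 in Cdk9-KD. Each of these medians is the value of Enpp3, which had at most 50 counts per library.

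Across the 7 members tested, the median log2 difference was 0.05 in Sox2-KD, against 0.02 over all genes tested in each of the 3 comparisons. It was −1.09 in the hnRNPK-labelled pair and −0.17 in Cdk9-KD. Each of these medians is the value of Enpp3, which had at most 50 counts per library. In the hnRNPK-labelled pair, Alpl, Entpd5 and Nt5e, which had more counts, were at −0.27, −0.44 and 2.59. In Sox2-KD, 28.2% of all genes tested had both KD libraries above both controls and 25.2% had both below, and among the 7 members these were 2 (Nt5e and Enpp1) and 2 (Alpl and Entpd2). In the hnRNPK-labelled pair the shares of all genes were 20.4% and 18.7%, with 1 and 5 of the 7 members. In Cdk9-KD the shares were 21.2% and 18%, with 1 and 3 members. Nothing about the members is read from these counts, since they were selected on these libraries and Enpp1 passed the filter only where it is high.

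Per kilobase of exon, Alpl led the 9 genes in control with 56.6 ± 14.5 RPKM (SD, n = 2), followed by Entpd5 at 1.78 ± 0.348. Nt5e at 0.753 ± 0.397, Adora2b at 0.738 ± 0.0781 and Entpd2 at 0.721 ± 0.122 came next and did not differ beyond their spread. Enpp3 was at 0.374 ± 0.145 RPKM, and Enpp2, Enpp1 and Entpd1 were all under 0.02. In each KD group Nt5e was next below Alpl, at 5.28 ± 0.699 RPKM in Sox2-KD, 4.54 ± 0.711 in the hnRNPK-labelled pair and 4.51 ± 0.426 in Cdk9-KD. Its lowest KD library, at 4.04 RPKM, was above the highest value of Entpd5, at 2.71.

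**Figure D3:**
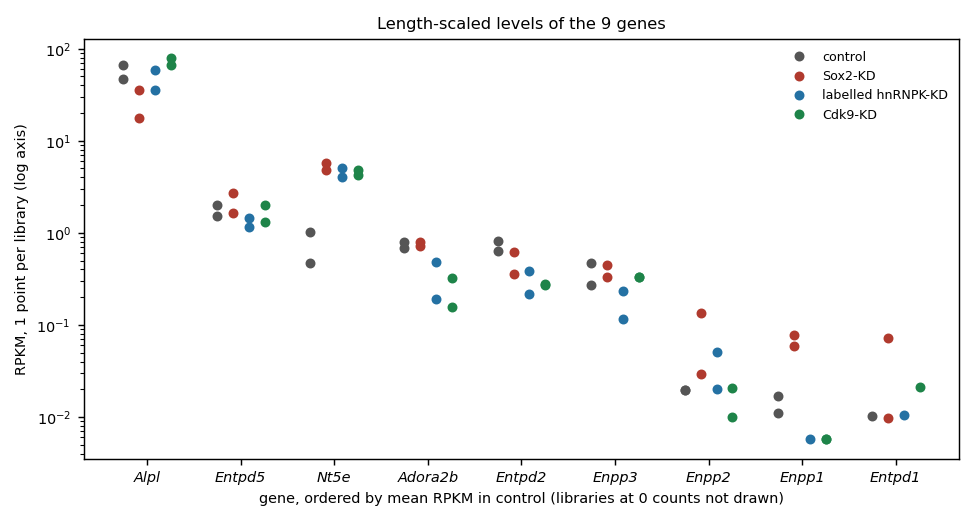
Length-scaled level of the 9 genes. The vertical axis is RPKM on a log axis, with 1 point per library colored by group and libraries at 0 counts not drawn, and the genes are ordered by their mean in control. Alpl is above the others in every group, and Nt5e passes from the level of Adora2b and Entpd2 in control to between 4.04 and 5.77 RPKM in the KD libraries, above Entpd5.

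Markers of other cell types were measured beside these values. In Sox2-KD the trophectoderm markers (Cdx2, Gata3, Eomes, Elf5, Krt8, Krt18, Tfap2a) summed to between 163 and 297 CPM, against 50.6 to 69.8 in control, and 4 of the 6 tested were called higher. Over all 16504 genes tested, 434 were called higher in Sox2-KD. Most of the sum in Sox2-KD was Krt8 and Krt18, with means of 139.5 and 62.1 CPM against 17.9 and 3.07 in control. Cdx2 went the other way, from a mean of 27.4 CPM in control to 6.16, and was not called (log2 difference −2.15, edgeR adjusted p = 0.0521). The sum was 75.6 to 125 CPM in the hnRNPK-labelled pair, where Cdx2 ranged from 346 to 1463 counts, against 351 to 613 in control. In Cdk9-KD the sum was 83.4 to 90.9 CPM, and 1 of the 6, Eomes, was called higher, beside 9 of all 16504 genes. Eomes had means of 9.1 CPM in Sox2-KD, 8.0 in the hnRNPK-labelled pair and 16.85 in Cdk9-KD, against 3.2 in control. Primitive endoderm markers (Gata4, Gata6, Sox17, Sox7, Dab2, Pdgfra, Foxa2) summed to 43.1 to 62.6 CPM in Sox2-KD, with 2 of 5 tested called higher, and to between 2.97 and 5.96 in the other 6 libraries. Most of that sum was Dab2, at a mean of 44.6 CPM against 0.768 in control, while Gata4 was at 0.805 against 0.966 and Pdgfra at 2.92 against 2.22. Sox7 was at 0 counts in both control libraries and Foxa2 in both libraries of the hnRNPK-labelled pair. The part of these markers in the levels of Nt5e, Enpp1, Enpp2 and Alpl was not tested. In bulk RNA, fewer cells of a type and less RNA per cell cannot be told apart.

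CD73 is also known as a surface marker of mesenchymal cells. Fibroblast markers (Col1a1, Col1a2, Col3a1, Dcn, Lum, Postn, Thy1) summed to between 4.98 and 6.19 CPM in control and to between 2.25 and 5.28 CPM in the 6 KD libraries. The sum pooled genes that differed in opposite directions in Sox2-KD. There, Lum was called higher, with 23 and 13 counts against 0 and 1, and Col3a1 (14 and 2 counts against 0 and 1), Dcn (5 and 1 against 0 and 0) and Postn (2 and 1 against 0 and 0) were above both controls. Col1a2, with 4 and 1 counts in Sox2-KD against 32 and 24, was below both. Dcn was at 0 counts in the hnRNPK-labelled pair and in Cdk9-KD as well. The part of such cells in the level of Nt5e was not tested.

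The wider purinergic system was taken as 58 further genes in 6 lists, of which 38 passed the filter. These comprised 15 genes listed as other ectonucleotidases, 7 intracellular nucleotidases and 11 genes of adenosine uptake and turnover. With them were 3 other adenosine receptors, 15 receptors for ATP and related nucleotides (P2 receptors) and 7 genes of nucleotide release and phosphate transport. Further Entpd and Enpp genes entered the first list by name, whatever the site or substrate of their enzymes. In Sox2-KD 3 of the 38 were called, all lower, against 4.32% of all genes. In the hnRNPK-labelled pair and in Cdk9-KD 0 were called by edgeR, beside 0% and 0.139% of all genes, and 2 and 2 were called by DESeq2. In edgeR, 6 and 5 of the 38 were at an unadjusted p under 0.05, beside 8.03% and 10.4% of all genes tested. The median log2 difference of the 38 was 0.00, −0.17 and −0.13 in the 3 comparisons, against 0.02 over all genes in each.

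Adenosine uptake and turnover held 2 of the 3 calls. Ada, adenosine deaminase, which turns adenosine into inosine, was at 15.8 and 15.9 CPM in control and at 2.20 and 5.14 in Sox2-KD. It fell by 2.11 on the log2 scale (SE 0.353, adjusted p = 0.0107, edgeR quasi-likelihood test with Benjamini-Hochberg adjustment over all genes). Dpp4 encodes CD26, a surface peptidase that in some species anchors adenosine deaminase. It was at 32.8 and 26.8 CPM in control and at 10.1 and 8.16 in Sox2-KD, a fall of −1.70 (SE 0.321, edgeR adjusted p = 0.0169). Ada and Dpp4 were both below the controls in both Sox2-KD libraries, and Dpp4 was at 36.5 and 43.6 CPM in the hnRNPK-labelled pair, above both controls. In this list, 5 of the 10 genes tested were at an unadjusted p under 0.05 in Sox2-KD, beside 19.3% of all genes tested. Slc29a1, the equilibrative nucleoside transporter with the highest level in the list, had log2 differences of −0.26, 0.22 and 0.26 (edgeR adjusted p = 0.528, 0.862 and 0.698).

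Ank, a membrane protein needed for the export of ATP and pyrophosphate from cells, gave the third call. It was at 15.8 and 28.8 CPM in control and at 3.85 and 6.05 in Sox2-KD, and fell by 2.17 on the log2 scale (SE 0.337, edgeR adjusted p = 0.00842). In the hnRNPK-labelled pair it was at 3.99 and 5.06 CPM, a difference of −2.30 (SE 0.340, edgeR adjusted p = 0.148). In Cdk9-KD Ank was at 8.94 and 8.46 CPM, a difference of −1.36 (SE 0.325, edgeR adjusted p = 0.186). All 6 KD libraries were below both control libraries, and DESeq2 called Ank in all 3 comparisons. An annotated microRNA gene, Mir7117, overlaps the exons of Ank by 65 bases, and those of Dpp4 share 232 bases with Gm13561 on the opposite strand, so that both counts are uncertain. The other 4 genes tested in its list gave no call. Slc20a1, a phosphate importer and the highest of the list, had log2 differences of −0.20, 0.07 and 0.20 (edgeR adjusted p = 0.526, 0.958 and 0.713).

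Without control replicate 2, 0 of the 38 genes were called in Sox2-KD. Ank then had a difference of −1.68 (edgeR adjusted p = 0.063) and Ada one of −2.11 (edgeR adjusted p = 0.0526). Dpp4 lost its call when any single library of either group was left out, with adjusted p between 0.0562 and 0.139 in edgeR. The sums of trophectoderm and primitive endoderm markers were higher in the same Sox2-KD libraries, and their part in the falls of Ada, Dpp4 and Ank was not tested.

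The other ectonucleotidases gave 0 calls among 9 tested in each edgeR comparison, beside 4.32%, 0% and 0.139% of all genes called. Of the 9, 4, 4 and 2 were at an unadjusted p under 0.05 in edgeR, beside 19.3%, 8.03% and 10.4% of all genes tested. DESeq2 called Acpp in the hnRNPK-labelled pair. Cd38, the NAD-degrading enzyme and the highest of the list, was at 66.7 and 65.5 CPM in control and between 76.3 and 92.5 in all KD libraries, with log2 differences of 0.38, 0.34 and 0.30 (edgeR adjusted p = 0.191, 0.602 and 0.524). Acpp, an acid phosphatase that also hydrolyzes AMP, was named for the DESeq2 call after its values were seen. It was at 3.83 and 9.40 CPM in control, 1.98 and 4.11 in Sox2-KD, 2.05 and 1.34 in the hnRNPK-labelled pair and 1.87 and 2.07 in Cdk9-KD. Its log2 differences were −1.12, −1.96 and −1.74 (edgeR adjusted p = 0.236, 0.389 and 0.259).

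The 5 intracellular nucleotidases tested gave 0 calls in each comparison, with 0 at an unadjusted p under 0.05 in edgeR. Nt5c2, the most abundant, had log2 differences of 0.21, 0.02 and −0.11 (edgeR adjusted p = 0.652, 0.993 and 0.915). Of the P2 receptors, 9 were tested and 0 called, with 1, 1 and 0 at an unadjusted p under 0.05 in edgeR. Over all genes tested, 4.32%, 0% and 0.139% were called, and 19.3%, 8.03% and 10.4% were at such a p. The ATP-gated channel P2rx7 was highest, with differences of 0.88, −0.19 and 0.08 (edgeR adjusted p = 0.332, 0.961 and 0.974). The adenosine receptors Adora1, Adora2a and Adora3 had at most 9 counts in any library and were not tested, which leaves Adora2b as the only one of the family that passed the filter.

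Over the 38 genes, 1 had all 6 KD libraries above both controls (Cd38) and 4 had all 6 below (Bst1, Ada, Slc28a1 and Ank), beside 5.71% and 3.57% of all genes. Bst1 and Slc28a1, named because the count is small and after their values were seen, encode a relative of CD38 and a nucleoside importer.

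**Figure D4:**
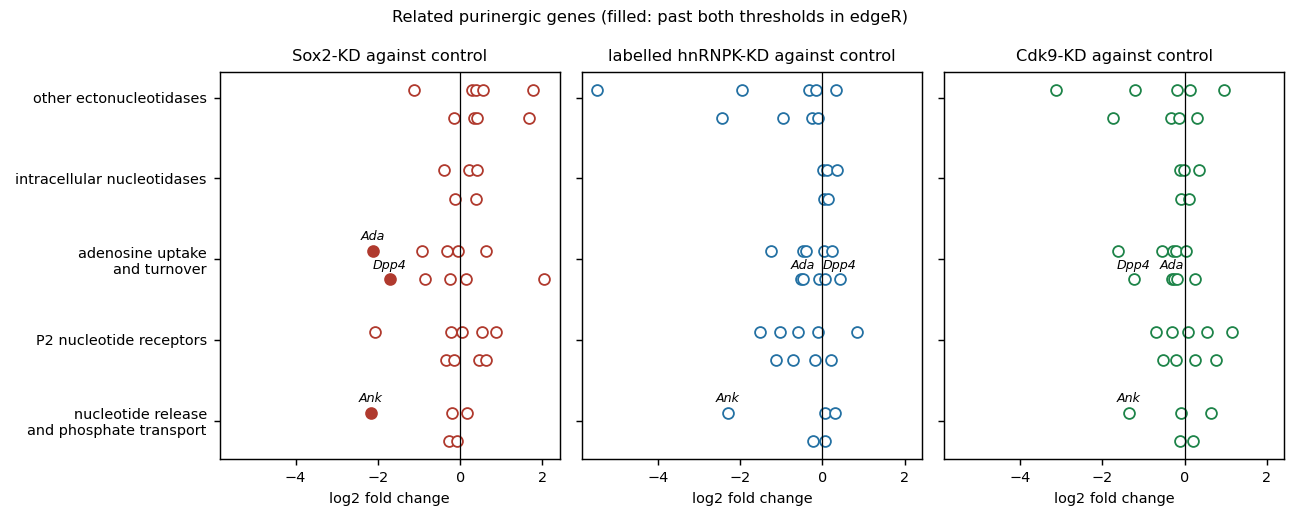
Differences of the 38 related genes tested, by list. The horizontal axis is the edgeR log2 fold change over control, each point is a gene, and filled points passed both thresholds. Ada, Dpp4 and Ank are filled in Sox2-KD at −2.11, −1.70 and −2.17, no point is filled in the other comparisons, and the points farthest to the left there belong to genes with few counts.

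Genes with profiles like those of Nt5e and Alpl were then sought among the 12522 genes with an average log2 CPM over 1. Likeness was the root mean square difference between profiles over the 8 libraries, each centered on its own mean in log2(CPM + 0.5), so that a smaller value is more alike. For Nt5e they were Ptgs1 (0.456), Epha1 (0.509), Arhgef5 (0.568), Ptprz1 (0.62) and Kifc3 (0.626). Ptgs1, the prostaglandin synthase also known as COX-1, had 18 and 9 counts in control and between 48 and 89 in the KD libraries. The ephrin receptor gene Epha1 had 51 and 28 counts in control and between 98 and 175 elsewhere. The exchange factor gene Arhgef5 had 22 and 19 counts in control, 174 and 145 in Sox2-KD and between 65 and 79 in the other KD libraries. In Sox2-KD, the fitted log2 difference of Arhgef5 was 2.93 (SE 0.317), beside 2.81 for Nt5e, and in the other comparisons it was 1.87 and 1.72, beside 2.59 and 2.58.

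For Alpl the most alike genes were Nmnat2 (0.19), Ctnnd2 (0.207), Ergic1 (0.216), Ndrg2 (0.226) and Mindy4 (0.229). These values are smaller than those for Nt5e, but the measure is not scaled for the spread of a profile. The centered profile of Nt5e ran from -2.51 to 0.944 and that of Alpl from -1.37 to 0.756. Nmnat2, an enzyme of NAD synthesis, had 351 and 392 counts in control, 126 and 193 in Sox2-KD, 203 and 298 in the hnRNPK-labelled pair and 414 and 322 in Cdk9-KD. Ergic1, a protein of the early secretory pathway, had 1010 and 1262 counts in control, 535 and 715 in Sox2-KD, 832 and 1083 in the hnRNPK-labelled pair and 1347 and 1273 in Cdk9-KD. As for Alpl, the lowest library of both genes was replicate 1 of Sox2-KD. These genes were chosen for their likeness, so their differences carry no test.

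**Figure D5:**
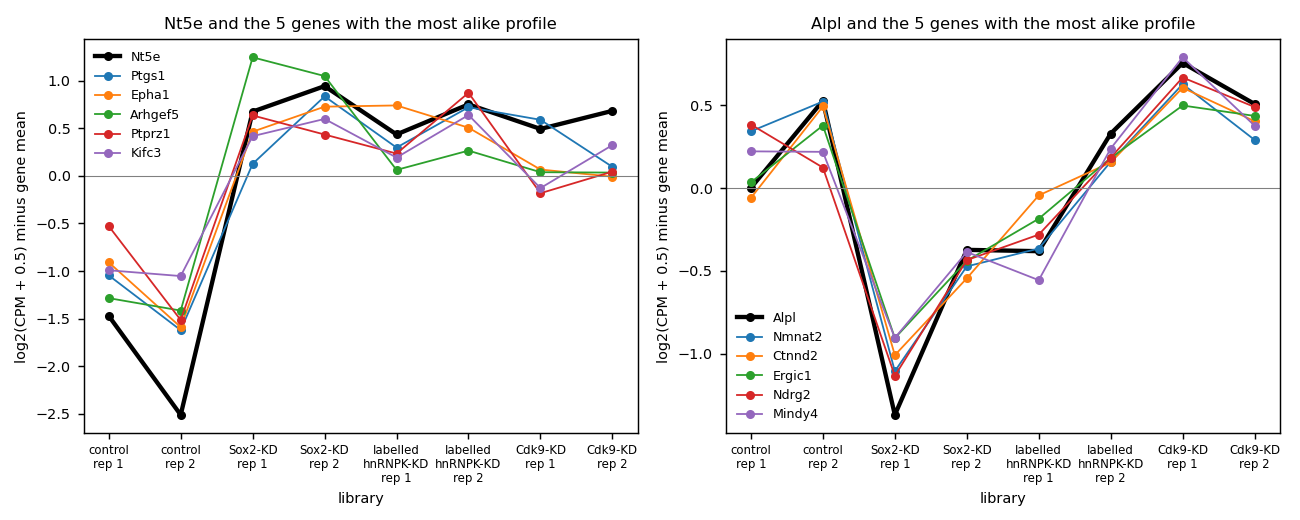
Profiles of Nt5e (left) and Alpl (right) with the 5 most alike genes. The vertical axes are log2(CPM + 0.5) minus the mean of the gene over the 8 libraries, the horizontal axes list the libraries, and the lines join the points of a gene only for the eye. Nt5e is the lowest line in both control libraries, and Alpl and its alike genes have their lowest point in replicate 1 of Sox2-KD.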

How the data were processed

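RNA-seq was done on 8 libraries of E14 ESCs. The authors trimmed adapters and low-quality pairs with Trimmomatic and aligned the rest to mm10 (GENCODE vM23). The submitters' processing notes name FastQC, STAR 2.7.9a and featureCounts 2.0.1. The deposited values are raw counts for each gene and library. Strand setting and treatment of shared reads are not given in the sources used here. With 2 replicates per group, the precision rests on a spread shared by all groups.

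Gene IDs were matched to GENCODE vM21, which gave symbols for 55154 of 55335 genes, while 181 had none. A total of 16504 genes passed filterByExpr at its defaults of 10 counts and a total of 15. A single fit over the 8 libraries, with group as its only term, was made in edgeR 4.0.16 (R 4.3.3) after TMM scaling. Contrasts were tested by quasi-likelihood, and p-values were adjusted by Benjamini-Hochberg over every gene tested. The SE of a log2 difference was derived from that test, as the size of the difference divided by the square root of the F statistic. Genes were called by the study's thresholds, 0.05 for the adjusted p and 0.6 for the size of the log2FC. RPKM used the merged exon length. Ratios of low counts have 95% exact binomial intervals on summed counts, which cover counting error only. The scripts were tested on simulated data. Figures were drawn with matplotlib 3.10.9.

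The members and gene lists were chosen with earlier results of these data known. The text names the 9 members, the related genes called in at least 1 comparison, the gene with the highest average log2 CPM of each related list, the 5 genes with the most alike profile to Nt5e and to Alpl, and the targeted genes. The alternatives were DESeq2 1.42.0, its size factors, library totals, a fit on the compared groups alone, dropping the filter, a stricter filter (10 counts or more in each library), a replicate block, no limit on log2FC, and leaving out each library. Values of Ank, Ada and Dpp4 under these were added after seeing the data. Promoter sequences are from RefSeq (GRCm38.p6), and Enpp2 had no entry. Protein sequences were not used here.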

Additional observations from a re-analysis of the deposited data

How the results depend on the processing

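Among the settings tried, 304 values of log2FC of the 7 members tested were compared with those reported. Of these, 289 moved by less than the spread between replicates and 15 by more, all of the latter on leaving out a library. Leaving out a library of a group outside the comparison was among the settings and can hardly move a log2FC, so 289 is no measure of stability. The sign was opposite for 10, all of them small differences of genes not called. A stricter filter (10 counts or more in each library) removed the members with few counts. DESeq2 called 83 genes in the hnRNPK-labelled pair and 222 in Cdk9-KD. Among the members DESeq2 called 2 in Sox2-KD (Alpl and Nt5e) and 1 in the hnRNPK-labelled pair (Nt5e), and among the related genes 6, 2 and 2 in the 3 comparisons. The DESeq2 count over all genes in Sox2-KD is not printed here, so nothing is read from the 6. Without a filter, 1 gene was called in the hnRNPK-labelled pair, which was Nt5e, 1 member. Nothing is read from the calls of members under any setting, since they were selected on these libraries. The causes were not tested.

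On leaving out 1 library at a time, all genes called ranged from 144 to 840 in Sox2-KD (170 and 151 without control replicate 1 and 2, 343 and 144 without Sox2-KD replicate 1 and 2), from 0 to 1 in the hnRNPK-labelled pair and from 0 to 33 in Cdk9-KD (lowest without either control library, at 1 and 0, and 6 without Cdk9-KD replicate 2). The members called ranged from 1 to 1, from 0 to 1 and from 0 to 1, and the related genes from 0 to 4, from 0 to 0 and from 0 to 0. Where a group keeps 1 library, that library is assumed to vary like the other groups.

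The replicate numbers were not taken to pair the samples, since the labels give no shared batch and the deviations of same-numbered libraries correlated at 0.231 (control and Sox2-KD), 0.118 (control and labelled hnRNPK-KD) and -0.073 (control and Cdk9-KD). With the replicate number as a block, 695 genes were called in Sox2-KD and 15 in Cdk9-KD, with 2 members (Alpl and Nt5e) and 5 related genes in Sox2-KD.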
